A study of Mus musculus with 71 samples.

Results

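The genes described here are 10 epithelial transporters, channels and enzymes that move salt, acid, base and water across the gut wall, out of 24475 gene identifiers in each of 3 bulk RNA-sequencing tables. They were taken as a named list: the carbonic anhydrases Car1, Car2 and Car4, the water channel Aqp8, the anion exchanger Slc26a3, the sodium proton exchanger Slc9a3, the epithelial sodium channel (ENaC) subunits Scnn1b and Scnn1g, the chloride channel Cftr and the cotransporter Slc12a2. All 10 have an entry in every table, and their levels were compared first between colon and small intestine, then between segments, cell fractions and genotypes.

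Btnl2 encodes a butyrophilin-like protein of the gut epithelium. The Btnl2-KO mice (genotype label Btnl2-/-) were C57BL/6 animals carrying a null allele in every cell, with LacZ and a selection cassette set at the start codon of Btnl2, and the WT mice were C57BL/6. Whole tissue gave 27 libraries with no age in weeks in the labels: 6 of WT and 7 of Btnl2-KO colon, and 7 of WT and 7 of Btnl2-KO small intestine. Their titles all carry the prefix YNG, read here as young. Intestinal epithelial cells (IECs), stripped with EDTA and collected on a Percoll gradient from 7-week-old mice, gave 16 libraries: 3 WT and 2 Btnl2-KO of the duodenum, 3 and 3 of the jejunum, and 2 and 3 of the ileum. Intraepithelial lymphocytes (IELs) sorted as CD45+ TCRβ- TCRγδ+ cells from mice of 10 weeks by the labels gave 22 libraries: 4 WT and 3 Btnl2-KO of the duodenum, 4 and 4 of the jejunum, and 4 and 3 of the ileum. Each γδ IEL library was a pool of 2 mice. Nothing says whether each tissue or IEC library came from its own animal, so p-values measure the spread between these libraries. Each small intestine was cut into 3 segments, so IEC or γδ IEL libraries of different segments can share mice. Colon and small intestine tissue libraries may share mice as well. The labels do not say which do, so the tests between segments, between tissues and by permutation treat libraries as independent. The libraries are named below by the library number in their labels.

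As background, surface cells of the gut absorb sodium chloride by exchanging sodium for protons and chloride for bicarbonate, and carbonic anhydrases supply both the proton and the bicarbonate from carbon dioxide. In the distal colon, aldosterone adds a second route, in which sodium enters through ENaC, and water follows the salt. Crypt cells work the other way: Slc12a2 loads the cell with chloride from the blood side and Cftr releases it into the lumen, so that fluid is secreted.

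In GRCm38.p6, Car1 (chr3:14766214-14808365) and Car2 (chr3:14886269-14900770) lie 77.9 kb apart. Scnn1g (chr7:121734420-121768482) and Scnn1b (chr7:121865038-121918728) lie 96.6 kb apart, and Aqp8 (chr7:123462294-123468003) follows on the same chromosome 1544 kb beyond Scnn1b. Slc26a3 lies at chr12:31433142-31473922, Slc9a3 at chr13:74086255-74169442, Car4 at chr11:84957754-84966054 and Cftr at chr6:18170687-18322770. The start regions of 4 members with a large difference between colon and small intestine are shown from RefSeq (GRCm38.p6, plus strand, 5′ to 3′, 250 bases before to 50 after an annotated start), with capitals marking the letters of a searched motif:
Scnn1b, chr7:121864788-121865087: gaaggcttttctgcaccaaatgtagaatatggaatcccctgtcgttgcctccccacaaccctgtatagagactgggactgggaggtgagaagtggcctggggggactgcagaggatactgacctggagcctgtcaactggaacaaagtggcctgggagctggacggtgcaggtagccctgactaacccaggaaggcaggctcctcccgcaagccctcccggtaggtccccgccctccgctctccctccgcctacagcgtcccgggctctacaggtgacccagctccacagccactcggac
Scnn1g, chr7:121734229-121734528: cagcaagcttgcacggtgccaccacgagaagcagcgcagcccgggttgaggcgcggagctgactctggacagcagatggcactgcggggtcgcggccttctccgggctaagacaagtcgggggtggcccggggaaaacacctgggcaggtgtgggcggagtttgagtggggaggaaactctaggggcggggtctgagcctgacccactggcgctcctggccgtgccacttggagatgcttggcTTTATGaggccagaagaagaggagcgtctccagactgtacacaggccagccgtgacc
Aqp8, chr7:123462044-123462343: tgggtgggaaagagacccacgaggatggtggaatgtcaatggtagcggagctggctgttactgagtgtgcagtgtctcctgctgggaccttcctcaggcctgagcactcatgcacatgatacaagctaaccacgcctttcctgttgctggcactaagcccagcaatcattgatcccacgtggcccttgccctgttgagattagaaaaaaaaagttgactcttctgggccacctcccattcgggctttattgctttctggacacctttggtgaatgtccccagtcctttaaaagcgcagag
Slc26a3, chr12:31437969-31438268: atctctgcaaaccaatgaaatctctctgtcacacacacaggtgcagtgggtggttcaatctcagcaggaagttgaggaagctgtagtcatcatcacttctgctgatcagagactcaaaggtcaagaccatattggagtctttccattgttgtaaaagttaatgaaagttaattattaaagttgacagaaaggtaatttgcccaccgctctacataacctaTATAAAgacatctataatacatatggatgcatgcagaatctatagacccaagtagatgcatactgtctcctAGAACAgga
Of the 10 members, 7 have an entry in that table; Car1, Car2 and Slc12a2 do not. Both strands were searched for 4 motifs: the letters TTTATG, known from caudal-type homeobox factors, the letters AGATAA, bound by zinc finger factors of the small intestine, the letters TATAAA of a core promoter box, and the letters AGAACA, part of the steroid receptor element. Scnn1g holds TTTATG with its first base at -7, and Slc26a3 holds TATAAA at -30 and AGAACA at 42. Car4 holds TATAAA at 43, and no searched letters occur in the Scnn1b, Aqp8, Slc9a3 and Cftr windows. Of 32851 mouse start regions of this length, 11.9% hold the first of these motifs, 11.2% the second, 13.6% the third and 19.0% the last. The Slc26a3 and Scnn1g starts used here lie inside the annotated spans of their genes, and so do the motif matches in their windows.

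Values are CPM, counts scaled to library sizes that were adjusted by TMM normalization. Btnl2 read 0.681 to 2.43 CPM in Btnl2-KO and 24.2 to 102 CPM in WT small intestine, 0 to 0.0447 against 0.648 to 2.41 CPM in colon, and at most 0.124 against 2.47 to 9.79 CPM in γδ IELs. In Btnl2-KO IECs it read 0.339 to 0.596 CPM, except 5.48 CPM in duodenal library 1003459 and 18.8 CPM in jejunal library 1003474, against 25.1 to 65.7 CPM in WT IECs. Segment markers also went against 3 Btnl2-KO IEC labels. The library labelled duodenum 1003459 had the ileal bile acid binding protein Fabp6 at 221 CPM and the proximal factor Gata4 at 51.0 CPM, the library labelled jejunum 1003474 had Fabp6 at 467 and Gata4 at 36.3 CPM, and the library labelled ileum 1003481 had Fabp6 at 0.240 and Gata4 at 159 CPM. Most small intestine tissue libraries carried ileal markers (Fabp6 1186 to 4014 CPM), except Btnl2-KO library 964939 (Fabp6 430, Gata4 95.5 CPM) and WT library 964950 (104 and 82.3 CPM). WT library 964952, with Fabp6 at 1186 CPM, was mixed. It had Gata4 at 15.3 CPM and the ileal bile acid transporter gene Slc10a2 at 14.8 CPM. The others with ileal markers had Gata4 at most at 2.28 and Slc10a2 at least at 79.6 CPM. Colon libraries had Hoxb13, a homeobox gene of the hindgut, at 110 to 436 CPM against at most 0.469 CPM in small intestine. Exocrine pancreas genes summed to 1284 CPM in Btnl2-KO colon library 964929 and 819 CPM in WT colon library 964932 and to at most 0.724 CPM in every other tissue library, and leaving either out changed no count of members called. Total counts were 13619309 to 21708721 per tissue, 15397757 to 38258472 per IEC and 13444958 to 30029485 per γδ IEL library.

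Car2, Car4, Aqp8, Slc26a3, Slc9a3 and Scnn1b were higher in colon than in small intestine in both genotypes, by 2.16 to 7.31 on the log2 scale in WT tissue, and the secretory Cftr was higher in WT by 0.65. Slc12a2 did not pass in either genotype, and Car1 passed by edgeR in Btnl2-KO but not in WT tissue, the interaction of which is given with the genotypes. In WT tissue, 7 of the 9 members tested were higher in colon and 0 were lower (edgeR, FDR below 0.05 and more than 1.5-fold), against 12.0% of 15162 genes higher. Counted in either direction, 27.6% of all genes passed. In Btnl2-KO tissue 7 of 9 were again higher and 0 lower, against 14.4% of 14798 genes. There Car1, Aqp8 and Scnn1b met the count minimum through colon alone, with 9, 4 and 2 small intestine counts. They could not be called lower. In WT tissue too, small intestine alone would not have brought these genes over the minimum. The median log2 fold change of the members tested was 2.20 in WT and 3.06 in Btnl2-KO tissue, and that of all genes was -0.02 and 0.02. The member not tested in either genotype was Scnn1g, which fell below the count minimum. Without WT libraries 964947 and 964948, which stand apart in Car1, 9 of 10 tested were higher and Slc12a2 (0.43, edgeR FDR 0.0514) was not, and leaving out 964950 as well gave 9 of 10. Colon and small intestine libraries did not overlap for 5 tested members in WT (24.7% of all genes) and 6 in Btnl2-KO tissue (27.2%). Both counts include genes that entered through colon alone: Aqp8 and Scnn1b in each, and Car1 in Btnl2-KO. Scnn1g, tested once 964947 and 964948 were left out, entered in the same way.

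**Figure D1:**
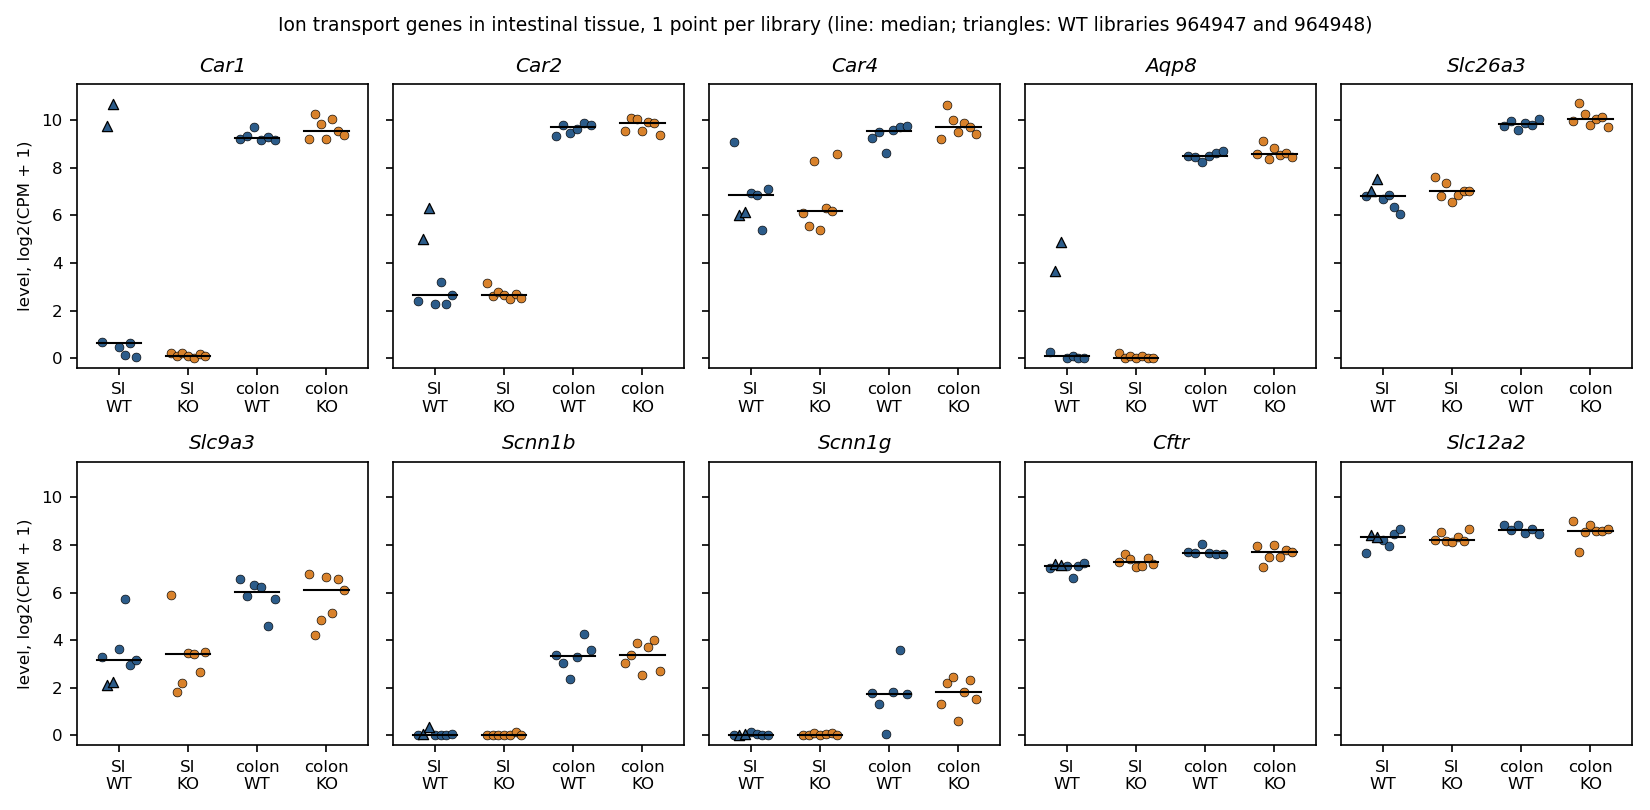
Level of each of the 10 genes, log2(CPM + 1) on the vertical axis, in every whole-tissue library of small intestine and colon. WT is in blue and Btnl2-KO in orange, and all panels share the same vertical range. The triangles are WT small intestine libraries 964947 and 964948, which read 857 and 1658 CPM for Car1 while the other 12 small intestine libraries read at most 0.603 CPM.

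Car1, a cytosolic carbonic anhydrase of colonic surface cells, read 572 to 846 CPM in the 6 WT colon libraries (median 607). In the 7 WT small intestine libraries it read 0.0499 to 1658 CPM (median 0.564), in 7 Btnl2-KO colon libraries 586 to 1229 CPM (median 738), and in 7 Btnl2-KO small intestine libraries 0 to 0.152 CPM. The Btnl2-KO tissues were apart in every library, with 93182 counts in colon and 9 in small intestine, a count ratio of 9490 (95% interval 4999 to 20755, counting error only). WT tissues overlapped, because 964947 and 964948 read at or above the colon level, and the WT log2 difference of 0.85 (SE 1.62, edgeR FDR 0.690) did not pass. With the same libraries, limma-voom with quality weights gave 6.11 (FDR 0.00901) and edgeR with the epithelial mean as covariate 9.25 (FDR 0.0107), which pass. Without these 2 libraries, an alternative chosen after their values were seen, it was 10.90 (edgeR FDR 1.01e-09).

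Aqp8, a water channel that also passes ammonia and hydrogen peroxide, followed the same course. It read 300 to 414 CPM in WT colon (median 364) and 331 to 565 CPM in Btnl2-KO colon (median 379). In small intestine it read 0 to 0.201 CPM in 12 libraries, and 11.6 and 28.5 CPM in 964947 and 964948. No small intestine library reached the colon range in either genotype. The log2 difference was 5.99 (SE 1.20, edgeR FDR 0.000893) in WT tissue, where DESeq2 gave 3.92 (FDR 0.0644), and 13.12 (SE 0.30) in Btnl2-KO tissue. There the count ratio was 10505 (95% interval 4103 to 38558), from 45844 counts against 4, and 18396 (5092 to 151907) without small intestine library 964939, which held 2 of the 4. Without 964947 and 964948 the WT difference was 12.77.

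Car2, the fast cytosolic carbonic anhydrase, read 641 to 941 CPM in WT colon (median 845) and 673 to 1105 CPM in Btnl2-KO colon (median 952). Small intestine held 3.83 to 8.17 CPM in 5 WT libraries, 31.5 and 77.3 CPM in 964947 and 964948, and 4.54 to 8.06 CPM in the 7 Btnl2-KO libraries. Every colon library was above every small intestine library. The log2 difference was 5.41 (SE 0.77, edgeR FDR 4.86e-05) in WT, 7.30 without those 2 libraries, and 7.33 (SE 0.19) in Btnl2-KO tissue. Car4, the carbonic anhydrase tethered to the outer face of the apical membrane, read 391 to 862 CPM in WT colon (median 748) and 40.9 to 544 CPM in WT small intestine (median 113). Its groups overlapped through small intestine library 964946 at 544 CPM and colon library 964934 at 391 CPM. In Btnl2-KO mice it read 595 to 1596 CPM in colon and 41.2 to 377 CPM in small intestine, without overlap. The log2 difference was 2.16 (SE 0.51, edgeR FDR 0.0032) in WT and 2.70 (SE 0.52, FDR 0.000393) in Btnl2-KO tissue.

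Libraries 964947 and 964948 therefore stood apart in specific members. The 3 members in which they exceeded the other 5 WT small intestine libraries most were Car1 (rank 1 of all genes by difference), Aqp8 (rank 4) and Car2 (rank 13). The pair was set apart for its Car1 values, so the rank of Car1 follows in part from that choice. Slc26a3 ranked 569, and Car4, Slc9a3 and Scnn1g were lower in the pair than in the other 5 on average. Other genes among the first 10 were Cyp2c55 and Slc6a14, at 858 and 182 CPM in the pair against 35.4 and 25.5 CPM in the other 5 and 831 and 787 CPM in WT colon. Clca4a, Ces1g and Cyp3a44, also among them, were higher in the pair (1299, 32.3 and 29.0 CPM) than in the other 5 (312, 1.82 and 3.52 CPM) and than in WT colon (248, 6.51 and 0.0189 CPM). Hoxb13 read 0.0509 and 0.0596 CPM in them, within the range of the small intestine. Where in the gut the 2 samples were cut is not given in the labels.

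Slc26a3, the apical exchanger that takes up chloride for bicarbonate, read 777 to 1044 CPM in WT colon (median 910) and 65.4 to 186 CPM in WT small intestine (median 112). In Btnl2-KO mice it read 838 to 1676 CPM in colon (median 1051) and 94.3 to 195 CPM in small intestine (median 128). The tissues did not overlap in either genotype. Its log2 differences, 3.02 (SE 0.20, edgeR FDR 3.01e-08) in WT and 3.06 (SE 0.19) in Btnl2-KO tissue, were close to each other.

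Slc9a3, the apical exchanger NHE3 that takes up sodium for protons, read 23.2 to 93.3 CPM in WT colon (median 65.8) and 3.36 to 52.8 CPM in WT small intestine (median 8.08). In Btnl2-KO mice it read 17.7 to 109 CPM in colon (median 67.6) and 2.60 to 58.2 CPM in small intestine (median 9.85). The overlap came from the 2 small intestine libraries with high Gata4: WT library 964950 read 52.8 and Btnl2-KO library 964939 58.2 CPM, while the other 12 read at most 11.4 CPM. Each of the 2 lay within the colon range of its genotype. The other 12 carried ileal markers, those of 964952 being mixed, so the Slc9a3 difference is mainly one between colon and ileum-like tissue. The log2 difference was 2.20 (SE 0.58, edgeR FDR 0.00639) in WT and 2.18 (SE 0.64, FDR 0.00914) in Btnl2-KO tissue. With the mean of 12 epithelial genes as a covariate the Btnl2-KO value turned to -0.38 (FDR 0.873). The sum of those 12 genes was 14868 to 20221 CPM in Btnl2-KO small intestine and 10903 to 16411 CPM in Btnl2-KO colon, and in WT tissue 9986 to 19090 and 11303 to 12865 CPM, all 12 genes being at 1 CPM or more. In bulk tissue, fewer cells of a type and less RNA per cell cannot be told apart.

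The ENaC subunits were almost confined to colon libraries among the tissues. Scnn1b, the β subunit, read 4.23 to 18.3 CPM in WT colon (median 9.21) and 0 to 0.298 CPM in WT small intestine, and 4.88 to 15.0 and 0 to 0.121 CPM in Btnl2-KO tissue. Counts were 1151 against 7 in WT, a ratio of 185 (95% interval 89.3 to 460), and 1137 against 2 in Btnl2-KO tissue, a ratio of 521 (144 to 4308). Library 964948 held 5 of the 7 WT small intestine counts, and without it the ratio was 560 (155 to 4630). Library 964944 held both Btnl2-KO small intestine counts, and without it the colon level was at least 292.9-fold higher, set against 3 counts over the group. Every colon library was above every small intestine library, and the log2 differences were 7.31 (SE 0.56, edgeR FDR 1.05e-07) and 8.52 (SE 0.53), and 9.10 in WT without 964947 and 964948.

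Scnn1g, the γ subunit, was lower and more variable. It read 0.0579 to 10.9 CPM (median 2.37) in WT colon and 0.528 to 4.51 CPM (median 2.55) in Btnl2-KO colon, against at most 0.110 and 0.0757 CPM in small intestine. In WT the groups overlapped through colon library 964934, at 0.0579 CPM. The difference in log2(CPM + 1) was 1.68 in WT (exact permutation test over 1716 arrangements, two-sided p = 0.00175, n = 6 and 7) and 1.72 in Btnl2-KO tissue (3432 arrangements, p = 0.000583, the smallest these groups can give, n = 7 and 7). Count ratios were 115 (95% interval 44.6 to 425) in WT, from 410 against 4 counts, of which colon library 964936 held 252 and small intestine library 964949 held 2, and 92.3 (31.3 to 450) in Btnl2-KO tissue, from 302 against 3. The WT ratio was 55.9 (21.4 to 208) without 964936 and 197 (54.2 to 1632) without 964949.

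Cftr read 195 to 263 CPM in WT colon (median 203) and 97.8 to 149 CPM in WT small intestine, without overlap, and its log2 difference of 0.65 (SE 0.10, edgeR FDR 0.000111) passed both thresholds narrowly. Without colon library 964934, the highest at 263 CPM, or without small intestine library 964950, the lowest at 97.8 CPM, the difference was 0.58 and stayed under the 1.5-fold minimum. In Btnl2-KO mice Cftr read 135 to 256 CPM in colon and 133 to 197 CPM in small intestine, which overlap, with a log2 difference of 0.38 (SE 0.13, edgeR FDR 0.025) under the minimum fold. Slc12a2 read 351 to 465 CPM in WT colon and 201 to 412 CPM in WT small intestine, and 208 to 519 and 275 to 404 CPM in Btnl2-KO tissue. Its ranges overlapped in both genotypes, with log2 differences of 0.39 (SE 0.14, edgeR FDR 0.0349) and 0.29 (FDR 0.144) under the minimum fold.

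**Figure D2:**
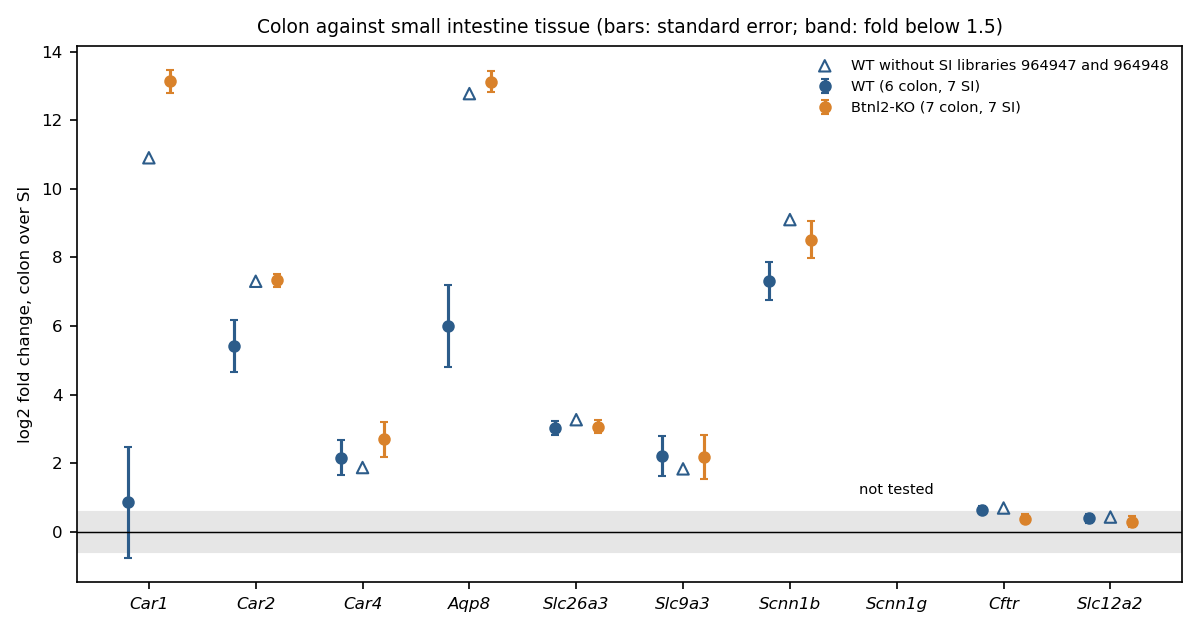
Log2 fold change of colon against small intestine (vertical axis) for each gene (horizontal axis), with WT in blue, Btnl2-KO in orange and bars of 1 SE; the grey band is the range under 1.5-fold, Scnn1g was not tested, and open triangles give WT without libraries 964947 and 964948. Car1 moved from 0.85 to 10.90 without them, whereas Slc26a3 stayed near 3 and Slc12a2 inside the band.

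Within a tissue, the members spanned a wide range of levels per length of exon. In WT colon the order of the median CPM per kb was Car1 486, Car4 380, Car2 349, Aqp8 230, Slc26a3 143, Slc12a2 36.6, Cftr 26.2, Slc9a3 12.0, Scnn1b 3.50 and Scnn1g 0.794. The library ranges of Car4 overlapped those of Car2 and of Aqp8. Ranges also overlapped for Slc12a2 and Cftr, for Slc9a3 and Scnn1b, and for Scnn1b and Scnn1g. Btnl2-KO colon had the same order. In WT small intestine Car4 led by median with 57.7 CPM per kb, ahead of Slc12a2 at 29.3, Cftr at 17.9 and Slc26a3 at 17.6. The medians of Car1, Aqp8 and both ENaC subunits were under 0.5. The ranges of Car4 (20.8 to 277 CPM per kb) and Slc12a2 (18.4 to 37.7) overlapped.

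Among colon libraries, members differed along with Hoxb13, a homeobox gene whose level rises toward the distal end of the gut. Hoxb13, chosen after its values were seen, ranged from 110 CPM in WT library 964934 to 436 CPM in Btnl2-KO library 964926. Across 13 colon libraries on the log2(CPM + 1) scale, 5 members had a Pearson r of at least 0.7 with it, as did 5.84% of 14044 genes, and 3 had an r of -0.7 or less, as did 6.13%. The positive ones were Car4 (r = 0.92, Spearman rho = 0.95), Car2 (0.86, 0.88), Scnn1g (0.81, 0.83), Scnn1b (0.76, 0.80) and Slc26a3 (0.73, 0.79). The negative ones were Cftr (-0.86, -0.91), Slc9a3 (-0.81, -0.88) and Slc12a2 (-0.71, -0.74). Over the 10 relations, the Benjamini-Hochberg adjusted permutation p of r for these 8 ranged from 0.0001 to 0.0103, and that of rho from 0.0001 to 0.00615 (100000 resamples). Without 964934 and 964926, the libraries farthest from the median, r was 0.89, 0.87, 0.73, 0.77 and 0.56 for the positive members in that order and -0.83, -0.90 and -0.74 for the negative ones. Within the 6 WT and the 7 Btnl2-KO libraries each of the 8 kept its sign, for example 0.97 and 0.91 for Car4 and -0.91 and -0.93 for Cftr. Car1 (r = 0.44, adjusted p = 0.136; rho = 0.43, adjusted p = 0.157) was opposite in the genotypes, -0.77 in WT and 0.97 in Btnl2-KO, and Aqp8 (0.45, 0.136; rho = 0.27, adjusted p = 0.366) went from 0.84 to 0.18 and fell to -0.32 without the 2 extreme libraries. The labels do not say which stretch of the colon was taken, and the part of position in these relations was not tested.

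**Figure D3:**
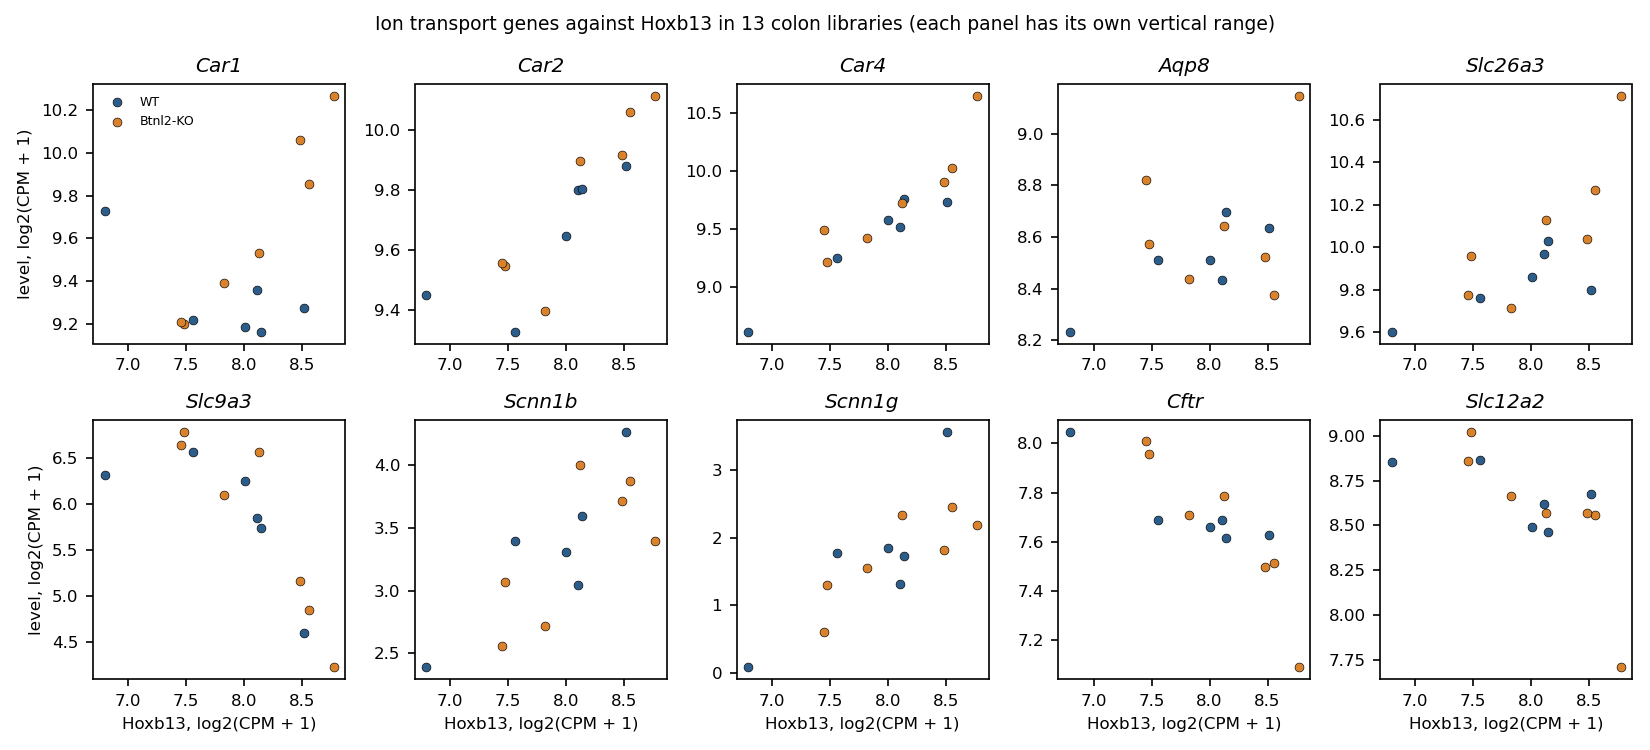
Level of each gene against Hoxb13, both as log2(CPM + 1), in the 13 colon libraries, with WT in blue and Btnl2-KO in orange and its own vertical range in each panel. Car4, Car2, Slc26a3 and the ENaC subunits were higher and Cftr, Slc9a3 and Slc12a2 lower in libraries with more Hoxb13, while Car1 had r = -0.77 within WT and 0.97 within Btnl2-KO.

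The residual pattern over all 27 tissue libraries, after the mean of each of the 4 groups was subtracted, placed the ENaC subunits together. Scnn1b and Scnn1g had r = 0.90, each being the gene most like the other among 14347 genes, and r = 0.91 without 964947 and 964948. Next for Scnn1g were Best2 (0.84), an anion channel of colonic goblet cells, and Atp12a (0.83), the colonic proton potassium pump. Next for Scnn1b were Nrap (0.87) and Sun2 (0.85). Cftr and Slc12a2 had r = 0.71 with each other (0.70 without the pair) and had Tbc1d4 among their 3 most like genes (0.81 and 0.87); Gm1123 (0.81) and Elapor1 (0.80) followed for Cftr, and Ttc37 (0.86) and Zfp275 (0.86) for Slc12a2. Without the pair Cftr kept its 3 genes, and those of Slc12a2 were Prkacb, Abcc1 and Ttc37.

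For Car1 the most like genes were Aqp8 (0.98), Hoxa10 (0.95) and Car2 (0.93), and Car2 and Aqp8 had r = 0.95. These values rest on 964947 and 964948: without them Car1 had r = 0.13 with Aqp8 and 0.17 with Car2, and Car2 with Aqp8 0.32. Car4 was most like Capn13 (0.92), Got1 (0.90) and Med21 (0.90), Slc26a3 most like Cryl1 (0.81), Rhot2 (0.80) and Pbld2 (0.80), and Slc9a3 most like Casp6 (0.83), Lgals3bp (0.81) and Asah2 (0.80). Without the pair Car4 kept Capn13 and Got1, whereas all 3 genes were replaced for Slc26a3 (Cxcl11, Odf3b and Gdpd2) and for Slc9a3 (Gramd1c, Plpp1 and Pcyt1a). These correlations describe libraries that share tissue and batch and carry no test.

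Other genes of ion and water transport did not share one direction. In WT tissue, of 8 genes on the list of the third ENaC subunit and ENaC regulators all 8 were tested, 4 were higher in colon and 0 lower, with a median log2 fold change of 0.74 against -0.02 for all genes. Scnn1a, the α subunit, averaged 191 ± 13.6 CPM (SD, n = 6) in colon and 30.2 ± 10.4 CPM (n = 7) in small intestine, a log2 difference of 2.66 (SE 0.18, edgeR FDR 3.75e-08). Hsd11b2, which inactivates glucocorticoids that would bind the mineralocorticoid receptor, was higher by 3.27 on the log2 scale (317 ± 75.2 against 32.9 ± 19.9 CPM), and the receptor gene Nr3c2 and the channel-activating protease Prss8 were the other 2, at 1.57 and 1.09. Btnl2-KO tissue gave 4 of 8 higher and 0 lower.

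Of 9 other carbonic anhydrases tested, 0 were higher and 3 lower in WT colon, with a median of -0.89 (0 and 4 of 9 in Btnl2-KO colon), Car14 by -2.17 on the log2 scale. Of 5 other aquaporins tested, 4 were lower and 1 higher in both genotypes: Aqp4, a basolateral water channel, at 662 ± 228 CPM in WT colon and 17.7 ± 5.22 CPM in WT small intestine (log2 difference 5.22), and on the lower side Aqp7 (-4.22) and Aqp3 (-3.02), channels that also carry glycerol. Of 7 other anion and bicarbonate exchangers tested in WT, 2 were higher and 3 lower. Slc26a6, an apical anion exchanger of the small bowel, averaged 2.43 ± 0.393 CPM in colon and 112 ± 53.7 CPM in small intestine (log2 difference -5.52), opposite in direction to its relative Slc26a3, and Slc4a5 was also lower (-3.96). Slc26a2, a sulphate transporter, and Slc4a7, a bicarbonate cotransporter, were higher by 2.10 and 1.73.

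Of 6 other sodium proton exchangers and scaffolds tested, 0 were higher and 2 lower: the scaffold Pdzk1 at 0.254 ± 0.144 CPM in WT colon and 116 ± 74.7 CPM in small intestine (log2 difference -8.82), and Slc9a3r1 (-1.58). Both bind Slc9a3 at the apical membrane, whose own message was higher in colon. Btnl2-KO tissue gave the same counts, with Pdzk1 at -10.51. Of 5 potassium channels tested, 2 were higher and 0 lower in both genotypes, Kcne3 (1.06), a partner of a basolateral potassium channel of crypt cells, and the large-conductance channel Kcnma1 (0.79).

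Of 9 other chloride channels and cotransporters tested, 3 were higher and 1 lower in WT colon (2 and 2 in Btnl2-KO colon). Best2 averaged 50.9 ± 21.7 CPM in WT colon and 0.128 ± 0.181 CPM in small intestine (log2 difference 8.57), the calcium-activated chloride channel Ano1 293 ± 49.7 and 39.4 ± 9.06 CPM (2.90), and Clca4b 3.65 ± 1.04 and 843 ± 533 CPM (-7.86). Of 6 pumps and their subunits tested in WT, 3 were higher and 1 lower (3 and 0 of 7 in Btnl2-KO tissue). Atp12a averaged 347 ± 194 CPM in WT colon and 0.317 ± 0.0837 CPM in small intestine, a log2 difference of 10.06 (SE 0.67, edgeR FDR 2.92e-08), and Atp1b1, the β1 subunit of the sodium pump, was higher in WT (0.60) but not in Btnl2-KO tissue (0.18, edgeR FDR 0.127). On the secretion list, 2 of 10 tested were higher and 2 lower in WT, among them the kinase gene Stk39 (0.79), the peptide gene Guca2b (-4.08) and the kinase gene Prkg2 (-3.20); Btnl2-KO tissue gave 2 and 3 of 9. These lists were drawn up with earlier results of these data known.

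Along the small intestine, the IEC fraction had less Slc9a3 in WT ileum than in WT duodenum. It read 59.9, 94.1 and 87.7 CPM in the 3 WT duodenal libraries, 46.2, 78.4 and 51.7 CPM in the jejunal ones and 28.6 and 17.8 CPM in the ileal ones. Duodenum and ileum did not overlap, and the jejunal libraries lay above the ileal ones but overlapped the duodenal ones. The Slc9a3 log2 difference of ileum against duodenum was -1.79 (SE 0.33, edgeR FDR 0.0132). Slc9a3 was the 1 member called of 8 tested, against 2.38% of 13046 genes lower and 6.59% in either direction. The call was lost when either ileal library was left out: -2.19 (edgeR FDR 0.0506) without 1003488 and -1.49 (FDR 0.119) without 1003491. Ileum against jejunum gave -1.34 (SE 0.32, edgeR FDR 0.153). With 2 ileal libraries, the WT segments shared 1 estimate of the spread.

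Calls of the other members between duodenum and ileum depended on the test. An unadjusted p under 0.05 was found for 6 of 8 members (19.3% of all genes). The libraries of 6 did not overlap (36.7% of all genes). DESeq2 called 4 members and 1336 of all genes, and limma-voom 5 members and 1638 of all genes. Of the 8, Aqp8 met the count minimum through duodenum alone and Car1 through ileum alone. Car4 read 103, 153 and 119 CPM in duodenal and 70.3 and 58.3 CPM in ileal WT libraries, a log2 difference of -0.96 (SE 0.25, edgeR FDR 0.0569). Car2 read 8.47, 8.70 and 4.16 CPM against 2.11 and 2.04 CPM (-1.77, SE 0.55, FDR 0.103), and Slc26a3 147, 199 and 154 CPM against 126 and 87.9 CPM (-0.64, SE 0.23, FDR 0.151). All 3 were without overlap. When Btnl2-KO libraries other than 1003459 and 1003481 were added with genotype as a term, 6 members and 2034 of all genes passed. Car1 went upward (5.03) and Slc9a3 (-1.54), Car2 (-2.12), Car4 (-0.81), Slc26a3 (-0.74) and Aqp8 downward in the ileum. Leaving out 1003474 as well gave the same 6, with 2230 of all genes.

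Among WT IEC libraries, Aqp8 was read in those of the duodenum only. It read 1.94, 5.51 and 0.303 CPM in WT duodenal IECs and 0 in all 3 jejunal and both ileal WT libraries, so that its 166 duodenal counts were at least 66.0-fold over jejunum and 44.3-fold over ileum, set against 3 counts over the group. Library 1003466 held 119 of the 166 counts, and without it the bounds were 27.4-fold and 18.4-fold. They were 103-fold and 68.9-fold without 1003468, 40.4-fold or 40.3-fold over jejunum without 1003476 or 1003477, and at most 22.3-fold over ileum without either 1003488 or 1003491. The edgeR FDR was 0.0817 for ileum against duodenum. Exocrine pancreas genes summed to 0.113 to 11.7 CPM in WT duodenal IECs, and to at most 0.0317 CPM in WT jejunal and 0.109 CPM in WT ileal IECs. In 1003466 the pancreas genes Cpa1 and Cela2a read 1.30 and 1.85 CPM. In Btnl2-KO duodenal IECs the sum was 0.0449 to 0.102 CPM. The part of pancreas RNA in the Aqp8 readings was not tested. Among Btnl2-KO IECs Aqp8 read 1.97 CPM in duodenal library 1003464 and 0 in the library labelled duodenum 1003459. It read 0.180 CPM in the library labelled ileum 1003481 (Pdx1, a duodenal factor, at 4.79 CPM), and the remaining 5 Btnl2-KO IEC libraries read 0. Car1 ran the other way at a low level: 0.443 and 0.364 CPM in WT ileum, 22 counts, against 2 counts in duodenum (ratio 13.7, 95% interval 3.38 to 121) and 4 in jejunum (8.20, 2.79 to 32.7). Both duodenal counts were in 1003466, and without it the ileum was at least 6.26-fold higher. The ratios were 8.41 (2.07 to 73.8) to duodenum without 1003468 and 5.02 to jejunum without 1003476. Btnl2-KO ileal libraries 1003484 and 1003485 read 2.14 and 1.68 CPM, and 1003481 read 0. Scnn1b and Scnn1g read at most 0.0463 CPM in every IEC library.

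Jejunum against duodenum gave 0 of 6 members called in WT IECs (edgeR; 0.791% of all genes), with an unadjusted p under 0.05 for 1 (14.6% of all genes), and DESeq2 and limma-voom also called 0. Ileum against jejunum gave 0 of 8 (edgeR, 0.644% of all genes), among them Aqp8, which had 0 counts in both segments and could not be called. An unadjusted p under 0.05 was found for 3 (6.41% of all genes). DESeq2 and limma-voom each called 1, Slc9a3, and 286 and 258 of all genes.

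**Figure D4:**
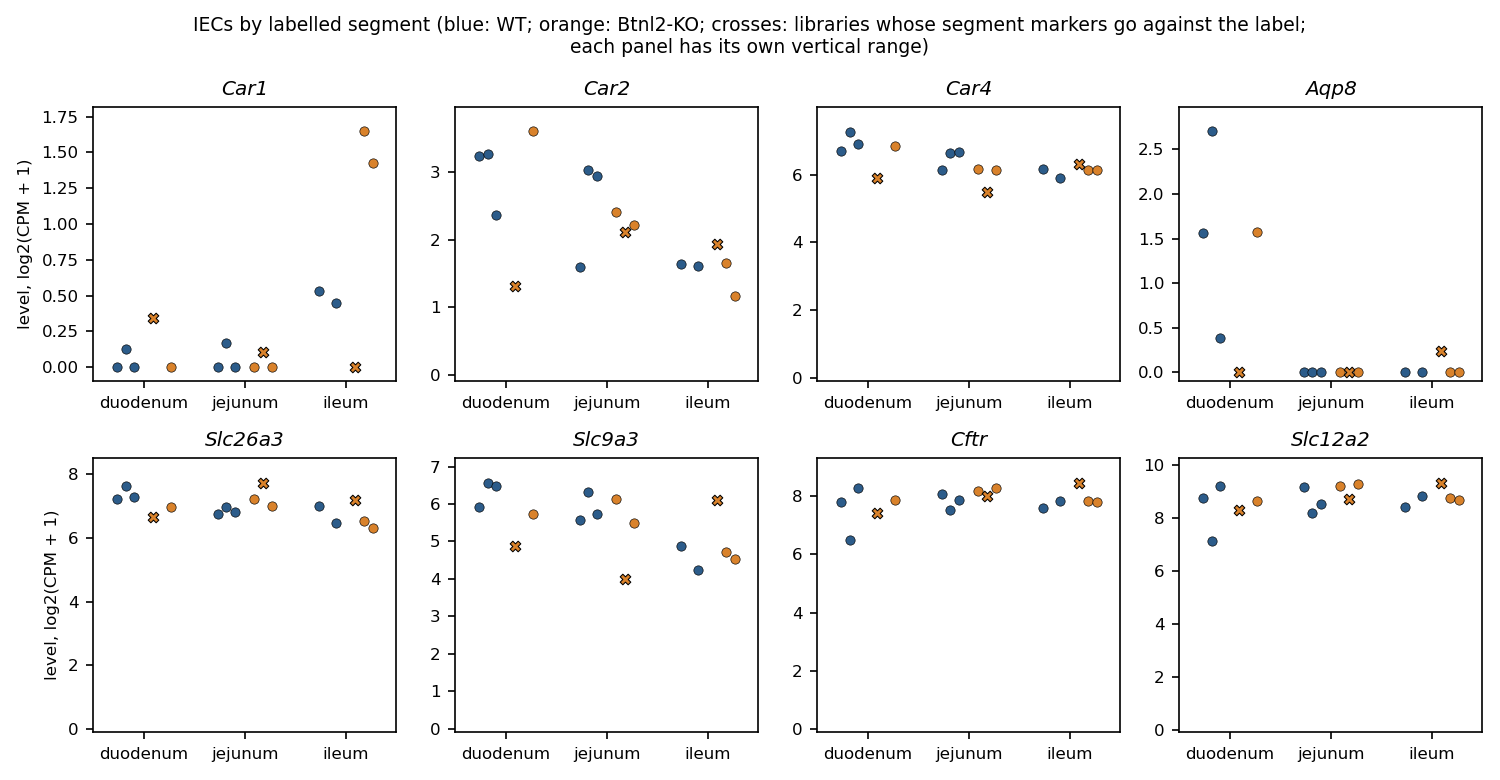
Level of 8 members, log2(CPM + 1) on the vertical axis with its own range in each panel, in the 16 IEC libraries by labelled segment, with WT in blue and Btnl2-KO in orange. Crosses are the 3 libraries whose segment markers go against their labels; Slc9a3 lies at 59.9 to 94.1 CPM in WT duodenum and at 17.8 and 28.6 CPM in WT ileum, and Aqp8 above 1 CPM only in duodenal libraries.

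The secretory pair did not follow the segments. Cftr read 222, 89.4 and 309 CPM in WT duodenum, 271, 183 and 232 CPM in jejunum and 192 and 229 CPM in ileum, and Slc12a2 429, 140 and 581 CPM, 568, 289 and 364 CPM, and 333 and 452 CPM. All segments overlapped, and both genes were lowest in duodenal library 1003466. Ileum against duodenum gave log2 differences of 0.03 and 0.04 (SE 0.43 and 0.51).

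Instead the pair varied together from library to library. Over 16 IEC libraries Cftr and Slc12a2 had r = 0.98 (permutation p = 1e-05, the smallest 100000 resamples can give) and rho = 0.87 (permutation p = 4e-05), with r = 0.94 without 1003466 and 1003481, and 0.96 within the 6 jejunal libraries. Both followed the mean of 5 crypt base genes (Lgr5, Olfm4, Ascl2, Smoc2 and the proliferation gene Mki67), with r = 0.84 each and rho = 0.75 and 0.74 (adjusted permutation p = 0.00036 for r and 0.00417 for rho, 6 relations). Without 1003466 and 1003485, r was 0.77 and 0.78, and within jejunum 0.80 and 0.89. The duodenum and ileum had 5 libraries each, too few for a value of their own. For the absorptive members r was 0.14 for Car2, -0.08 for Car4, 0.05 for Slc26a3 and 0.19 for Slc9a3 (adjusted permutation p = 0.868 for each r and 0.499 for the rho values of Car2, Car4, Slc26a3 and Slc9a3, the largest of which was 0.29). Without 1003466 and 1003485 these were 0.38, 0.39, 0.28 and 0.52, and within jejunum -0.75, -0.21, -0.33 and 0.04. Of 11473 genes, 2.05% had an r of at least 0.8 with the crypt mean. The relation was sought after the values of Cftr and Slc12a2 were seen, and the part of crypt cells carried into each fraction was not tested.

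In sorted γδ IELs, Car2 was the member that stood out. It read 358 to 755 CPM in the 22 libraries and 1.24 to 11.2 CPM in the 16 IEC libraries, without overlap. In WT duodenum the means were 552 ± 68.2 CPM (SD, n = 4) in γδ IELs and 7.11 ± 2.56 CPM (n = 3) in IECs, a ratio of 77.6. The ratio was 112 in jejunum (596 ± 32.2 and 5.31 ± 2.85 CPM) and 202 in ileum (419 ± 63.0 and 2.07 ± 0.0470 CPM). Cd3e, a component of the T cell receptor complex, was 139 to 224 times higher in γδ IELs than in IECs. The fractions came from mice of different ages and from separately normalized tables, so no test was made between them.

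The other epithelial members were lower in γδ IELs than in IECs in every segment, by 1.64 to 2.66 times for Car4, 9.86 to 11.4 times for Slc26a3, 9.31 to 19.9 times for Cftr, 5.04 to 9.02 times for Slc12a2 and 40.9 to 218 times for Slc9a3. Vil1, which builds the brush border, was lower by 12.7 to 13.1 times and the summed level of 12 epithelial genes by 1.90 to 3.35 times. Aqp8 was the exception in the duodenum, at 2.85 ± 1.08 CPM in γδ IELs and 2.59 ± 2.66 CPM in IECs. Car1 read at most 0.121 CPM and Scnn1b at most 0.104 CPM in γδ IELs, and Scnn1g had 0 counts in all 22 libraries.

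Most of these members rose and fell with the epithelial genes in the same γδ IEL library. The sum of the 12 epithelial genes ranged from 603 CPM in jejunal Btnl2-KO library 1105592 to 9075 CPM in ileal WT library 1105588. In 22 libraries, their mean level had r = 0.96 with Cftr (rho = 0.95), 0.90 with Car4 (0.76), 0.89 with Slc12a2 (0.93) and 0.86 with Slc26a3 (0.79), with adjusted permutation p of at most 4e-05 for r and 0.00015 for rho over 6 relations. An r of at least 0.85 was found for 4.80% of 11911 genes. Without 1105592 and 1105585, r was 0.95, 0.75, 0.92 and 0.69. Within the 7 duodenal, 8 jejunal and 7 ileal libraries it was 0.89, 0.98 and 0.91 for Cftr and 0.94, 0.97 and 0.96 for Car4, and lowest for Slc12a2 in duodenum (0.58).

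Car2 went the other way, with r = -0.54 and rho = -0.60 (adjusted permutation p = 0.0123 and 0.00418), r = -0.75 without the 2 libraries, and -0.80, -0.53 and -0.68 within duodenum, jejunum and ileum. Library 1105592, with the least epithelial signal, had Car2 at 660 CPM and Car4 at 1.03, Slc26a3 at 0.0765 and Cftr at 0.0765 CPM. Slc9a3 had r = 0.37 and rho = 0.33 (adjusted permutation p = 0.0856 and 0.136). How much of each level came from epithelial RNA was not tested.

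**Figure D5:**
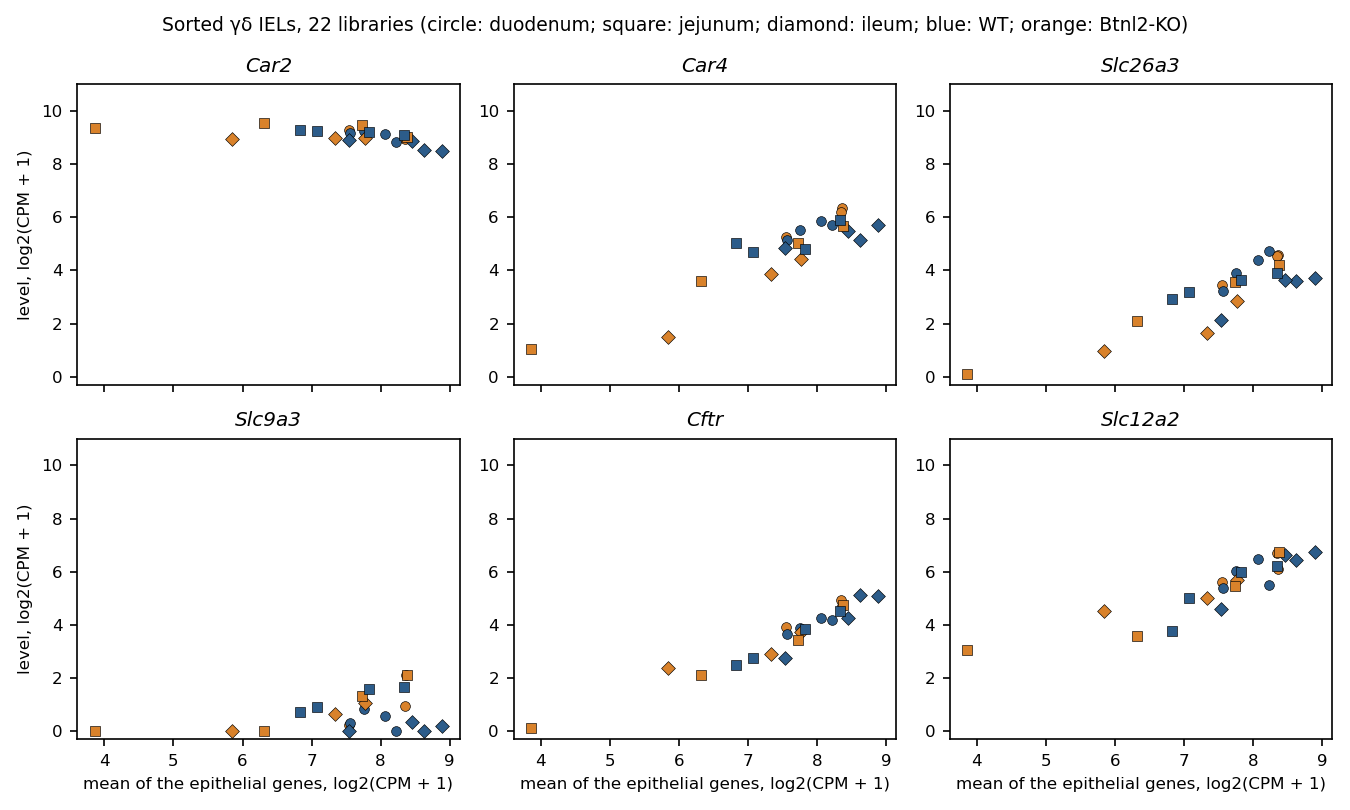
Level of 6 members against the mean level of 12 epithelial genes, both as log2(CPM + 1), in 22 γδ IEL libraries, with WT in blue, Btnl2-KO in orange and a shape for each segment. Cftr, Car4, Slc12a2 and Slc26a3 were higher where the epithelial mean was higher (r = 0.86 to 0.96) and Car2 was lower (r = -0.54).

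Between segments of WT γδ IELs, the member with the clearest difference was Aqp8. It read 3.05, 2.60, 1.58 and 4.18 CPM in the duodenum and 0 in all 8 jejunal and ileal libraries, so that its 180 duodenal counts were at least 87.1-fold over jejunum (57.3-fold without 1105596) and 56.5-fold over ileum. It was the 1 member called of 7 tested for ileum against duodenum (edgeR FDR 0.00334; 1.03% of 12899 genes lower) and for jejunum against duodenum (FDR 0.00208; 12.1% lower). Aqp8 met the count minimum through duodenum alone, so it could be called in this direction only. Epithelial sums overlapped between these groups, at 3335 to 5439 CPM in duodenum, 2034 to 5538 CPM in jejunum and 3482 to 9075 CPM in ileum. The sum of 8 small intestinal enterocyte genes was 966 to 4675 CPM in duodenum, 364 to 1181 CPM in jejunum and 201 to 620 CPM in ileum. Duodenum and ileum were thus apart in that sum, as they were in WT IECs (4336 to 7931 and 1993 to 2111 CPM). The part of epithelial RNA in the Aqp8 difference was not tested.

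For ileum against jejunum, 1 of 7 was called (10.5% of genes lower), Aqp8 having 0 counts in both segments. The member called was Slc9a3, at 0, 0.144, 0 and 0.282 CPM in ileum and 0.868, 2.19, 0.649 and 2.04 CPM in jejunum, without overlap, a log2 difference of -3.64 (SE 0.93, edgeR FDR 0.0115). With all libraries of the table in 1 fit it was -3.65 (FDR 0.0865). Slc9a3 had at most 5 counts in any WT ileal library and met the count minimum through jejunum. Car2 read 475, 358, 370 and 471 CPM in ileum and 604, 554, 631 and 596 CPM in jejunum, also without overlap, and its log2 difference of -0.50 (SE 0.14, edgeR FDR 0.0151) lay under the minimum fold.

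No member passed the thresholds between Btnl2-KO and WT by edgeR in any of 8 comparisons: 0 of 6 tested in small intestine, 10 in colon, 7, 6 and 7 in duodenal, jejunal and ileal IECs, and 7, 6 and 5 in duodenal, jejunal and ileal γδ IELs. The share of all genes called was 0.0202% in small intestine, 0.0269% in colon, 0.00774% in ileal IECs, 0.00789% and 0.00794% in duodenal and jejunal γδ IELs, and 0% in the other 3. An unadjusted p under 0.05 was found for 2, 0, 1, 2, 0, 1, 0 and 4 members in that order, and for 23.0%, 4.14%, 1.22%, 8.40%, 2.07%, 2.07%, 6.39% and 8.79% of all genes. DESeq2 called 0 in each, and limma-voom called 0 except 4 in ileal γδ IELs, where it called 1207 of 12604 genes. No gene of the other ion transport lists was called either. These tests do not show that levels were equal.

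In colon, the tissue where most members are highest, log2 differences of Btnl2-KO against WT ran from -0.34 for Scnn1g (SE 0.64) to 0.39 for Car4 (SE 0.23), with a lowest edgeR FDR of 0.972. Car1 was at 0.36 (SE 0.18), Slc26a3 at 0.27 (SE 0.14), Cftr at -0.05 (SE 0.13) and Slc12a2 at -0.06 (SE 0.16), and the genotypes overlapped for all 10. In small intestine the lowest FDR was that of Car2, at 5.62 ± 1.18 CPM in Btnl2-KO and 19.2 ± 27.5 CPM in WT libraries (n = 7 each), with a log2 difference of -1.78 (SE 0.66, edgeR FDR 0.152). Its ranges overlapped, and without 964947 and 964948 the difference was 0.14 (FDR 0.680). One fit over all tissue libraries, with 964947 and 964948 in place, called 3 members lower in Btnl2-KO small intestine, Car2 among them (-1.77, edgeR FDR 0.0422). That fit called 220 of all genes. Colon libraries counted toward its count minimum, so members not tested in small intestine alone could enter.

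The same 2 libraries decided the difference between tissues in the genotype effect. The interaction of genotype and tissue called 0 of 10 members by edgeR (0.0193% of 15540 genes), with an unadjusted p under 0.05 for Car1, Aqp8 and Car2 (12.9% of all genes), and DESeq2 called Car1 and Aqp8. Car1 had an interaction of 12.28 on the log2 scale (SE 2.47, edgeR FDR 0.133), which became 2.20 (FDR 0.0659) without 964947 and 964948. Aqp8 went from 7.14 to 0.34 and Car2 from 1.92 to -0.02. Leaving out any 1 of 964946, 964949, 964950, 964951 and 964952 brought the Car1 FDR to between 0.0285 and 0.0477.

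In IECs the genotypes were compared within labelled segments, with the 3 libraries whose markers go against their labels in place, and leaving each out in turn also gave 0 members called. In the duodenum the unadjusted p under 0.05 was that of Slc9a3 (28.2 and 51.9 CPM against 59.9, 94.1 and 87.7 CPM), whose lowest value is the library labelled duodenum 1003459. In the jejunum they were those of Car4 (70.9, 44.0 and 69.0 against 69.3, 98.8 and 101 CPM) and Slc26a3 (149, 212 and 127 against 106, 125 and 112 CPM), both with the library labelled jejunum 1003474 at the extreme.

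In ileal γδ IELs, Car4 read 13.7, 1.85 and 20.3 CPM in Btnl2-KO and 28.0, 50.9, 34.0 and 44.1 CPM in WT libraries. The genotypes did not overlap, and the log2 difference was -1.70 (SE 0.58, unadjusted p = 0.0149, edgeR FDR 0.476). Slc26a3 (-1.59, FDR 0.529), Cftr (-1.53, FDR 0.506) and Slc12a2 (-1.16, FDR 0.532) had values of the same sign, and limma-voom with sample quality weights gave FDRs of 0.0276, 0.0297, 0.0402 and 0.0313 for the 4. The epithelial sum moved with them, at 2874, 1034 and 3615 CPM in Btnl2-KO and 3482, 9075, 7988 and 6777 CPM in WT libraries, and its part in the difference was not tested. Car2, which ran against the epithelial signal, read 500, 490 and 509 CPM in Btnl2-KO and 475, 358, 370 and 471 CPM in WT libraries, without overlap, at 0.28 on the log2 scale, and was not called. The interaction of genotype with ileum against duodenum called 0 of 7 members by edgeR (0% of 13360 genes), with 0 at an unadjusted p under 0.05 (5.73% of all genes), and DESeq2 and limma-voom also called 0.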

How the data were processed

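Bulk RNA was sequenced from whole tissue, IECs and sorted γδ IELs. The deposited values are expected counts per Entrez gene, which the authors estimated with RSEM from reads aligned in ArrayStudio to a customized mouse genome (GRCm38 per the labels), counting sense-strand exon reads. The methods and the labels name different library kits, and which libraries used which is not given in the sources used here. Of 24475 identifiers, 24375 matched a RefSeq symbol (GRCm38.p6). One column that matched no sample was not used. Of the values above 0, 17.2% in the tissue, 14.9% in the IEC and 5.00% in the γδ IEL table were not whole, and counts were rounded.

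edgeR 4.0.16 quasi-likelihood tests (R 4.3.3) were fitted on all genes that reached 10 counts in a number of libraries equal to the smaller group's size, after TMM normalization, with FDR below 0.05 (Benjamini-Hochberg) and fold above 1.5, the thresholds of the study's own DESeq2 analysis. Fits held the libraries compared, the 3 WT segments together for segments, and all 4 groups for an interaction. SE was the log2 fold change divided by the square root of F. DESeq2 1.42.0, limma 3.58.1 (voom) and other settings were alternatives. Correlations used log2(CPM + 1) and 100000 resamples (scipy 1.17.1, Python 3.11.15), and the scripts were tested on simulated data. Levels per kb used GENCODE exon lengths. The 3 tables were normalized separately. Intervals and floors (3 counts over a group) cover counting error only. No pair of replicate libraries differed by as little as sampling noise (lowest chi-square per degree of freedom 5.28).

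The 10 members were all named. From other genes, the text takes those of the ion transport lists with the largest called changes, the 3 genes most like each member, segment and cell markers, and genes whose choice after seeing values is stated. The members and lists were chosen with earlier results of these data known.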

Additional observations from a re-analysis of the deposited data

Results flagged for a closer look

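Of 57 sets of values (a gene in a group of 4 to 7 libraries), 8 held a library far from the rest of its group by Dixon's test, where chance gives about 1 in 20. In small intestine, Slc9a3 read 58.2 CPM in Btnl2-KO library 964939 (the others 2.60 to 10.5 CPM) and 52.8 CPM in WT library 964950 (3.36 to 11.4 CPM), the libraries with Gata4 at 95.5 and 82.3 CPM. Library 964950 also had the lowest Cftr, 97.8 CPM (129 to 149 CPM).

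In colon, WT library 964934, with the lowest Hoxb13 (110 CPM), had the highest Car1, 846 CPM (572 to 654 CPM), and the highest Cftr, 263 CPM (195 to 205 CPM). Btnl2-KO library 964926, with the highest Hoxb13 (436 CPM), had the lowest Slc12a2, 208 CPM (376 to 519 CPM).

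In WT ileal γδ IELs, library 1105587 had Slc26a3 at 3.34 CPM (11.1 to 12.2 CPM) and Slc12a2 at 23.4 CPM (85.1 to 106 CPM), with an epithelial sum of 3482 CPM against 6777 to 9075 CPM. What set these libraries apart was not tested.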

How the results depend on the processing

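Of 2646 member results under alternatives, 2579 kept their direction and side of the thresholds, 58 were newly called, 8 were lost and 1 turned: Slc9a3 in Btnl2-KO colon against small intestine with the epithelial mean as covariate (-0.38). Another 155, never called, changed sign. Unless said otherwise, the cause was not tested. Beside the counts of members given above, the Btnl2-KO difference in small intestine gave 3 with all tissue libraries in one fit. Ileum against duodenum in IECs gave 4 by DESeq2, 2 with no count filter, 5 by limma-voom, 0 with all libraries in one fit, and 6 with both genotypes, with or without 1003474. Jejunum against duodenum in IECs gave 2 with both genotypes and 1 without 1003474. Ileum against jejunum in IECs gave 1 by DESeq2 and by limma-voom, 1 with both genotypes and 2 without 1003474. In γδ IELs, the epithelial covariate gave 2 for each pair of segments. Limma-voom gave 3 for jejunum against duodenum, 4 for ileum against jejunum and 4 for the genotypes in ileum. Ileum against jejunum gave 2 with no fold minimum and 0 with all libraries in one fit. The interaction with tissue gave 2 by DESeq2. With 1 library left out, the counts ran from 6 to 7 in WT and 7 to 8 in Btnl2-KO tissue (colon against small intestine), from 0 to 3 for ileum and 0 to 1 for jejunum against duodenum in IECs (3 without 1003476, 2 and 1 without 1003468), from 1 to 2 in γδ IELs for jejunum against duodenum (2 without 1105581 or 1105596) and for ileum against jejunum (2 without 1105587 or 1105596), and from 0 to 1 for the interaction with tissue. No other comparison's count moved when 1 library was left out. Where an arm then held 1 library, that library is assumed to vary like the others.

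Counts of all genes called moved further. Small intestine genotypes gave 3 genes by edgeR, 177 by DESeq2, 51 by limma-voom, 220 with all libraries in one fit and 324 without 964947 and 964948; ileal γδ IEL genotypes gave 0, 221, 1207 and 2 in the first 4 of these. The interaction with tissue gave 3, 17 by DESeq2, 9 by limma-voom, 9 with no count filter and 144 without 964947 and 964948. In IECs, ileum against duodenum gave 860, 1336 by DESeq2, 1638 by limma-voom, 0 with all libraries in one fit and 565 with the 2 segments alone, jejunum against duodenum 101, 424, 222, 0 and 40, and ileum against jejunum 84, 286, 258, 0 and 145. With both genotypes these 3 gave 2034, 800 and 336, and 2230, 750 and 656 without 1003474. Colon genotypes gave 4 by edgeR, 10 by DESeq2 and 7 by limma-voom, and the other genotype comparisons, 5 in all, gave 0 or 1 by edgeR and 1 to 4 by DESeq2. In γδ IELs, ileum against duodenum gave 272, 498 by DESeq2, 124 with all libraries in one fit and 546 with the epithelial covariate, and ileum against jejunum 2822, 4293 by limma-voom, 1440 with all libraries, 1255 with the covariate and 4237 with no fold minimum. With no fold minimum, colon against small intestine gave 7115 in place of 4185 in WT and 7561 in place of 4463 in Btnl2-KO tissue.

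No paired analysis was possible because the groups share no replicate numbers and the labels do not tie segment or tissue libraries to mice. The ENaC subunits had at most 5 counts in any library outside colon, which sets the width of their intervals.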
